A study of Mus musculus with 8 samples.

Results

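The 7 genes Tecta, Tectb, Ceacam16, Otog, Otogl, Otoa and Otol1 encode matrix proteins that lie on top of the sensory epithelia of the inner ear. They were chosen by symbol, and all 7 were found among the 27998 genes of the 8 count matrices. Single cells of the mouse organ of Corti, the sensory strip of the cochlea, had been profiled with droplet 3′ RNA-seq. All 8 libraries came from mice with the same 4 alleles, so the control libraries carried them too: the Cre driver Fgfr3iCre+ with Atoh1-HA+, the hair cell reporter Chrna9-GFP+, and the Cre reporter Rosa26-CAG-loxP-stop-loxP-tdTomato+. In this model tamoxifen releases an Atoh1-HA transgene from the CAG promoter in cells with Fgfr3-driven Cre, mainly the Deiters' and pillar cells, which are supporting cells (SCs) around the outer hair cells (HCs). Some of these SCs become converted hair cells (cHCs). Cochleae were taken at postnatal day 12 without tamoxifen (Coch P12, 2 libraries), at postnatal day 26 or 33 after tamoxifen at postnatal day 12 and 13 (Coch + Tmx P26, 3 libraries; Coch + Tmx P33, 2 libraries), and at postnatal day 33 without tamoxifen (Coch P33, 1 library). The labels do not say from how many animals a library came, so p-values measure the spread between these libraries, part of which may be technical.

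The tectorial membrane is a gel that is secreted by the epithelium and rests on the hair bundles. Its noncollagenous part is built from α-tectorin (Tecta) and β-tectorin (Tectb), which assemble into the striated sheet matrix, and from CEACAM16, a secreted protein that binds α-tectorin. Otogelin (Otog) and otogelin-like (Otogl) are mucin-like glycoproteins of the same gel. Otoancorin (Otoa) is held on the apical surface of epithelial cells and attaches the gel to them. Otolin-1 (Otol1) is a collagen-like protein known best from the otoconia, the crystals of the vestibular organs. The tectorial membrane is mostly laid down before hearing begins, which in mice is around the youngest age sampled here.

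The libraries held 3972800 to 13423524 UMIs (unique molecular identifiers, each standing for 1 captured RNA molecule) and yielded 499 to 1364 kept cells, 5966 in all, with a median of 3538 to 8749 UMIs per cell. Clusters were built without the 7 genes and 18 related matrix genes and named from marker lists. They included 129 SC-like, 114 cHC-like and 46 HC-like cells. A nonsensory epithelial-like class of 542 cells joined 2 clusters, called here by their leading genes: cluster Fam25c (231 cells, 8 of 12 nonsensory markers detected) and cluster Ucma (311 cells, 7 of 12). Cluster Agr3 (104 cells) detected 6 of 12 nonsensory and 3 of 10 SC markers and stayed unnamed under a margin set after the data were seen. At P12 it made up 0.687% and 1.17% of cells. The P26 libraries had 1.06% to 2.57%, those of P33 with tamoxifen 2.53% and 4.01%, and Coch P33 had 2.25%.

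The library labelled as rep 3 of Coch + Tmx P26 went against its label. Its Atoh1 level over all cells was 12.4 CPM (UMIs of the gene per 1e6 UMIs of the sum), against 16.5 to 23.5 in the 3 uninduced libraries and 91.0 to 517 in the other 4 induced ones. It held 0 of the 114 cHC-like cells. It also supplied nearly all SC-like cells of its group, with 32, against 3 and 2 in the other Coch + Tmx P26 libraries. Tests that include it are given without it beside the age and class results in SC-like cells.

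Reference sequence upstream of the start was found for 5 of the 7 genes (RefSeq, GRCm38.p6). The files were aligned to mm10, the same assembly. The 250 bases before the start are shown for Tectb, Tecta, Otog and Otol1. Tectb and Tecta stood lower in the later libraries than at P12. Otog did not pass the age test given below, and Otol1 was almost confined to 1 cluster. Capitals mark matches to the E-box CANNTG, the core motif of basic helix-loop-helix factors such as ATOH1, and to TATAA, the core of a TATA box.
Tectb, chr19:55180476-55180725, plus strand: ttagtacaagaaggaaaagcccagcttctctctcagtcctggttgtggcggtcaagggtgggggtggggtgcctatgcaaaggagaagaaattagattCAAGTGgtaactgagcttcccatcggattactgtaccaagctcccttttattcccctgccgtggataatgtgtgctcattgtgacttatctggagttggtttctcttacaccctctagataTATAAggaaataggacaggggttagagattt
Tecta, chr9:42401691-42401940, minus strand: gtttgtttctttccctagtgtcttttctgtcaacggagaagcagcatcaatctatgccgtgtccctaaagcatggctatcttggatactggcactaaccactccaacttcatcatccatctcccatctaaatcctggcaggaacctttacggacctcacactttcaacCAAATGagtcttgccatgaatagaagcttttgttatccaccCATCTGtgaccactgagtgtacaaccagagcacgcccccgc
Otog, chr7:46240737-46240986, plus strand: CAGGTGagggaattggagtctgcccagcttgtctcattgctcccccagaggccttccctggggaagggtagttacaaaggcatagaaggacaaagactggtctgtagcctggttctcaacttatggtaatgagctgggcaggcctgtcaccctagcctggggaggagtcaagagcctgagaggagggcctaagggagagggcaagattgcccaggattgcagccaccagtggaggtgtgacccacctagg
Otol1, chr3:70007363-70007612, plus strand: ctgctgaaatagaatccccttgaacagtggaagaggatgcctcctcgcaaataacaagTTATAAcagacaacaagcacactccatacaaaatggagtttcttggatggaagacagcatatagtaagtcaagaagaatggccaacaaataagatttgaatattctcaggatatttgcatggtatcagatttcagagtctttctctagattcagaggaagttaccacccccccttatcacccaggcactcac
The Tectb window held the E-box CAAGTG 152 bases before the start and a TATAA 31 bases before it on the strand of the gene. The Tecta window held CAAATG at 82 and CATCTG at 41 bases before the outer of 2 annotated starts. The Otog window held CAGGTG at its far end, 250 bases before the start. In the Otol1 window, TATAA matched on each strand, at 192 and 191 bases, and these matches overlapped. The Otoa window held neither motif. E-boxes, which read alike on both strands, were in 66.2% of the 32851 windows of this length, and TATAA on either strand in 22.8%. No upstream sequence was at hand for Ceacam16 (chr7:19852097-19871426) or Otogl (chr10:107760530-107912379).

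Most RNA of the gel genes came from 2 small groups of cells, the SC-like cells and cluster Fam25c. SC-like cells were 2.16% of all cells and held 55.8% of Tectb UMIs, 60.3% of Ceacam16, 40.1% of Otogl and 35.2% of Otog. Cluster Fam25c was 3.87% of all cells and held 38.4% of Tectb, 19.2% of Ceacam16, 21.7% of Otogl and 34.4% of Otog. The same cluster held 59.5% of Tecta and 92.2% of Otol1 UMIs. Depth differed greatly between genes: over all cells there were 9943 UMIs of Ceacam16, 3608 of Tectb, 2446 of Otog, 472 of Otol1, 457 of Otoa, 267 of Otogl and 74 of Tecta.

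Pooled over libraries, the Tectb level was 1117 CPM in SC-like cells, 658 CPM in cluster Fam25c, 14.0 CPM in cluster Ucma and 6.46 CPM in cluster Agr3. Ceacam16 spread wider within the nonsensory epithelium. It stood at 3328 CPM in SC-like cells, 906 CPM in cluster Fam25c and 483 CPM in cluster Ucma, but at 19.96 CPM in cluster Agr3. Otog had the reverse order of those last clusters, with 478 CPM in SC-like cells, 399 CPM in cluster Fam25c, 241 CPM in cluster Agr3 and 31.8 CPM in cluster Ucma. Macrophage-like cells, which should lack all 7 genes, gave 8.14 CPM of Ceacam16, 1.44 CPM of Otog and under 1 CPM of each of the other 5 genes, a measure of free RNA. Single libraries departed from the pooled order: Ceacam16 was lower in SC-like cells (185 and 73.3 CPM) than in cluster Fam25c (380 and 2772 CPM) in Coch + Tmx P33, and Tectb was lower in SC-like cells (726 CPM) than in cluster Fam25c (1378 CPM) in Coch P12 rep 2.

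Shares of cells with a UMI were compared at equal depth. Each cell was thinned to 1000 UMIs, and 73.6%, 42.6% and 91.5% of SC-like cells with Ceacam16, Tectb and Otog before thinning (median depth 14208 UMIs) became 58.1%, 28.7% and 34.1%. In cluster Fam25c (median depth 5512 UMIs), thinning took Ceacam16 from 52.4% to 28.6% of cells, Tectb from 33.3% to 19.9% and Otog from 74.9% to 32.5%. The corresponding shares in macrophage-like cells (median depth 6062 UMIs) were 5.37%, 0.716% and 1.07% before and 0.894%, 0.179% and 0.358% after thinning. At least 3 of the 7 genes had a UMI in 66 of the 129 SC-like cells (51.2%) and in 121 of the 231 cells of cluster Fam25c (52.4%).

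Summed per library, β-tectorin RNA was higher at P12 than in the later libraries, both in SC-like cells and in the nonsensory epithelium. In SC-like cells Tectb stood at 3860 and 726 CPM in the Coch P12 libraries and at 36.1 and 198 CPM in Coch + Tmx P33. Coch P33 had 286 CPM (exact Poisson 95% interval 236 to 344, counting error only) and the library labelled as rep 3 of Coch + Tmx P26 had 489 CPM. Every later library with at least 5 SC-like cells thus lay below both P12 libraries, although these differed from each other by over 5-fold. In P12 rep 2, however, 1 of the 8 SC-like cells held 83 of the 86 Tectb UMIs. The 27 UMIs of Coch + Tmx P33 rep 2 also came from 1 cell. The place of P12 rep 2 above the later libraries thus rests on 1 cell. In cluster Fam25c the P12 libraries lay close together, at 1454 and 1378 CPM, while Coch + Tmx P26 had 131, 16.9 and 0 CPM and Coch + Tmx P33 had 92.7 and 2.34 CPM. Coch P33 had only 4 cells of this cluster, with 0 Tectb UMIs. In cluster Ucma the levels were 117 and 12.5 CPM at P12, and the later libraries had 0 CPM except for 2.32 CPM in Coch P33.

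**Figure D1:**
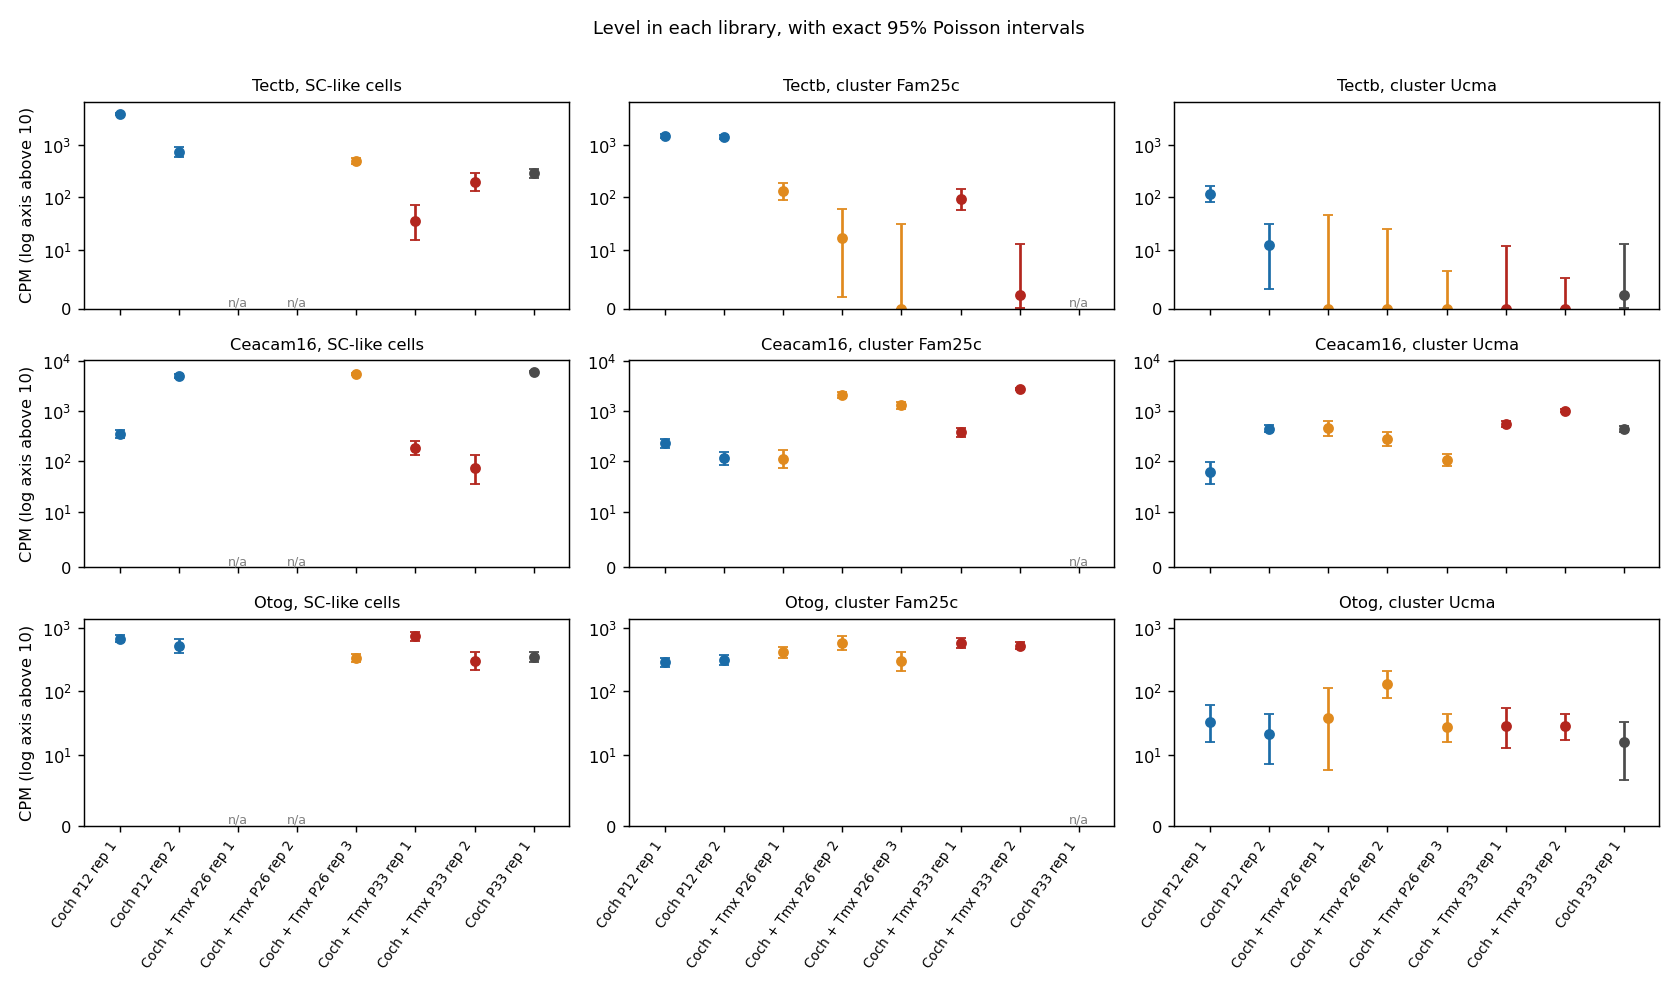
Levels of Tectb, Ceacam16 and Otog (CPM, axis logarithmic above 10) in SC-like cells, cluster Fam25c and cluster Ucma, 1 point per library with its exact Poisson 95% interval; n/a marks fewer than 5 cells. Both P12 points of Tectb lie above all later points in SC-like cells and in cluster Fam25c. For Otog in SC-like cells, Coch + Tmx P33 overlaps with P12.

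The age comparison summed UMIs per library and set the mean of the later group means against Coch P12. Since 5 of the 6 later libraries had received tamoxifen and the P12 libraries had not, age and induction cannot be told apart in it. In the nonsensory epithelial-like class, 2 of the 7 genes passed the test and both were lower, where 0.982% of the 8862 genes tested were called lower. Tectb fell by 6.26 on the log2 scale (SE 1.10, adjusted p = 0.0207), from 956 and 799 CPM to 0 to 98.1 CPM. Cluster Fam25c made up more of this class at P12 (57 of 88 and 38 of 58 cells) than in most later libraries (35 of 50, 28 of 59 and 10 of 66 cells in Coch + Tmx P26, 15 of 48 and 44 of 131 in Coch + Tmx P33, 4 of 42 in Coch P33), so class-wide differences include this shift. In cluster Fam25c alone, an alternative chosen after the data were seen, Tectb differed by -4.88 (adjusted p = 0.0339), and Tecta was not tested there. DESeq2 did not call Tectb in the class (adjusted p = 0.112). Without the library labelled as rep 3 of Coch + Tmx P26 the change was -6.04 (adjusted p = 0.00232). It missed the threshold without rep 2 of that group (-6.13, adjusted p = 0.0527), P12 rep 1 (-6.21, adjusted p = 0.0684) or P12 rep 2 (-6.31, adjusted p = 0.0556). Tested apart, the Coch + Tmx P26 libraries differed from P12 by -4.79 (adjusted p = 0.112) and the Coch + Tmx P33 libraries by -5.71 (adjusted p = 0.0969). Neither contrast called any of the 7 genes by edgeR or DESeq2, with 2 and 3 of them at an unadjusted p under 0.05, where 0.485% and 0.756% of all genes were called. When the Coch + Tmx P33 libraries were set against Coch + Tmx P26, edgeR and DESeq2 called 0 of the 7, edgeR called 0% of all genes, and 0 of the 7 had an unadjusted p under 0.05.

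In SC-like cells the comparison of Coch + Tmx P33 with Coch P12 called 3 of the 4 genes that passed the filter on low counts, all 3 lower, where 2.93% of the 5965 genes tested were called lower. Tecta, Otoa and Otol1 had too few UMIs there to be tested. Otogl, 1 of the 3 called, reached the filter level in the P12 sums of this contrast only. Its call thus supports nothing about the direction. Tectb fell by 4.41 (SE 0.56, adjusted p = 1.01e-06). Against all later libraries it fell by 3.09 (SE 0.41, adjusted p = 5.04e-06), a contrast that called 2 of 4 genes, both lower, where 2.36% of all genes were called lower. DESeq2 called none of these genes in either contrast (adjusted p = 0.0766 and 0.226 for Tectb). Without the library labelled as rep 3 of Coch + Tmx P26, the later contrast gave -3.63 for Tectb (adjusted p = 2.39e-05), -2.57 for Otogl (adjusted p = 0.00292), -1.56 for Ceacam16 (adjusted p = 0.106) and -0.43 for Otog (adjusted p = 0.639). With cells under 10% mitochondrial UMIs, the Tectb difference between Coch + Tmx P33 and Coch P12 was -4.06 (adjusted p = 0.101). Leaving out a P12 library moved it to -2.88 (rep 1) and -5.13 (rep 2). The former value rests on P12 rep 2, where 1 cell held most of the Tectb UMIs. The SC-like cells of P12 rep 1 also carried more HC marker RNA, with a sum of 278 CPM over 8 HC markers against 6.27 to 27.1 CPM in the other libraries. The part of this RNA in the Tectb result was not tested.

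α-tectorin was the rarest of the 7 RNAs, and most of it came from cluster Fam25c at P12. There it stood at 27.8 CPM (14 UMIs) and 59.7 CPM (26 UMIs) in Coch P12, and Coch + Tmx P26 rep 1 and Coch + Tmx P33 rep 2 had 2 UMIs each. The other 4 later libraries had 0 UMIs. In the whole nonsensory epithelial-like class the P12 libraries, at 17.4 and 34.4 CPM, lay above the later ones, at 0 to 6.33 CPM. Tecta fell by 4.97 (SE 1.08, adjusted p = 0.0498), a value at the edge of the threshold that DESeq2 put at an adjusted p of 0.0637. It reached the filter level in the P12 sums only, here and over all cells, so these calls give no support for the direction. The call was lost without Coch + Tmx P26 rep 2, either Coch + Tmx P33 library or P12 rep 1 (adjusted p = 0.0799 to 0.175), and without P12 rep 2 the gene was not tested. Over all cells summed, Tecta was the only one of the 7 genes that passed, where 3.44% of the 14871 genes tested were called lower. It stood at 2.42 and 2.62 CPM at P12 and at 0.314 to 1.04 CPM later, a fall of 2.47 (SE 0.55, adjusted p = 0.0387; DESeq2 0.103). This call was lost when any library was left out (adjusted p = 0.0506 to 0.183) except Coch P33 and the library labelled as rep 3 of Coch + Tmx P26. In such sums fewer cells of a type and less RNA per cell cannot be told apart. SC-like cells held 1 Tecta UMI in 129 cells, and HC-like cells held 4.

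Ceacam16 levels in the nonsensory epithelium were higher in most later libraries than at P12. In cluster Fam25c it stood at 228 and 115 CPM in Coch P12, at 114, 2090 and 1302 CPM in Coch + Tmx P26, and at 380 and 2772 CPM in Coch + Tmx P33. The 4 cells of Coch P33 gave 952 CPM. The later libraries were higher than both P12 libraries except Coch + Tmx P26 rep 1, which lay level with P12 rep 2. Without droplets that held HC RNA, however, Coch + Tmx P33 rep 1 had 51.1 CPM (6 UMIs), below both P12 libraries (263 and 115 CPM on that basis). The class as a whole gave 166 and 257 CPM at P12 and 199 to 1689 CPM later, a log2 difference of 1.77 (SE 0.68) that did not pass (adjusted p = 0.265; DESeq2 0.596). Cluster Ucma had 60.2 and 449 CPM at P12, and its later libraries ranged from 107 to 1026 CPM, so that the groups overlapped.

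In SC-like cells Ceacam16 split the libraries without regard to age. Coch P12 rep 2, Coch P33 and the library labelled as rep 3 of Coch + Tmx P26 had 5054, 6118 (5877 to 6365) and 5566 CPM. Coch P12 rep 1 had 352 CPM and the Coch + Tmx P33 libraries had 185 and 73.3 CPM. Both P12 libraries lay above both Coch + Tmx P33 libraries, while Coch P33 and the library labelled as rep 3 of Coch + Tmx P26 lay above both P12 libraries. In the other Coch + Tmx P26 libraries, 3 and 2 SC-like cells gave 460 and 4446 CPM. The fit gave a fall of 4.37 from Coch P12 to Coch + Tmx P33 (SE 0.62, adjusted p = 6.84e-06), although the P12 libraries lay 14-fold apart. DESeq2 did not call it (adjusted p = 0.159), and without Coch P12 rep 2 the difference was -1.33 (edgeR adjusted p = 1.30e-06, with P12 rep 1 assumed to vary like the other groups). Against all later libraries the difference was -0.61 (adjusted p = 0.580). Free Ceacam16 RNA, read from macrophage-like cells, was at 80.1 CPM in Coch P33 and 28.7 CPM in the library labelled as rep 3 of Coch + Tmx P26. In the other 6 libraries it was at 0 to 7.47 CPM, and the highest of these was Coch P12 rep 2, whose SC-like cells were also high.

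The SC-like cells of Coch + Tmx P33 stood apart in other ways too. Their summed SC marker level was 4349 and 3941 CPM against 1548 to 2413 CPM in the other 4 libraries tested. Hes5, a Notch target, was at 583 and 908 CPM there and at 0 in the others, and the summed cHC markers were at 1012 and 1538 CPM against 194 to 272 CPM. Atoh1 was at 402 and 637 CPM against 30.1 to 84.4 CPM (log2 difference from Coch P12 2.99, adjusted p = 1.47e-05). Only 1 uninduced library of this age was at hand, so age, induction and the SCs captured cannot be told apart in the P33 values of Tectb, Ceacam16 and Otogl. Side by side at P33, with no test, Coch P33 had 286 CPM of Tectb, 6118 CPM of Ceacam16 and 32.6 CPM (17.4 to 55.8) of Otogl, each above both Coch + Tmx P33 libraries.

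With at least 5 UMIs of a gene as the limit, 20 of the 129 SC-like cells held both RNAs, 20 Tectb alone, 55 Ceacam16 alone and 34 neither. Of the 20 SC-like cells with Tectb alone, 17 came from Coch P12 rep 1, which had 31 SC-like cells, 4 of them with Ceacam16 alone. Coch P12 rep 2 went the other way: of its 8 SC-like cells, 1 held Tectb alone, 4 Ceacam16 alone and 3 neither. In the library labelled as rep 3 of Coch + Tmx P26, 9 of 32 cells held both, 22 Ceacam16 alone and 1 Tectb alone, and in Coch P33 these were 6, 19 and 0 of 25. In Coch + Tmx P33, 13 of 16 and 10 of 12 cells held neither. In cluster Fam25c, 3 of 231 cells held both, 39 Tectb alone and 59 Ceacam16 alone. At P12, 20 of 57 and 16 of 38 cells of that cluster held Tectb alone, and 4 and 2 held Ceacam16 alone. In the later libraries with at least 5 such cells, 0 to 2 cells per library held Tectb alone and 1 to 28 held Ceacam16 alone. Single cells reached 276 UMIs of Tectb and 142 of Ceacam16 in this cluster, and 176 and 432 in SC-like cells.

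**Figure D2:**
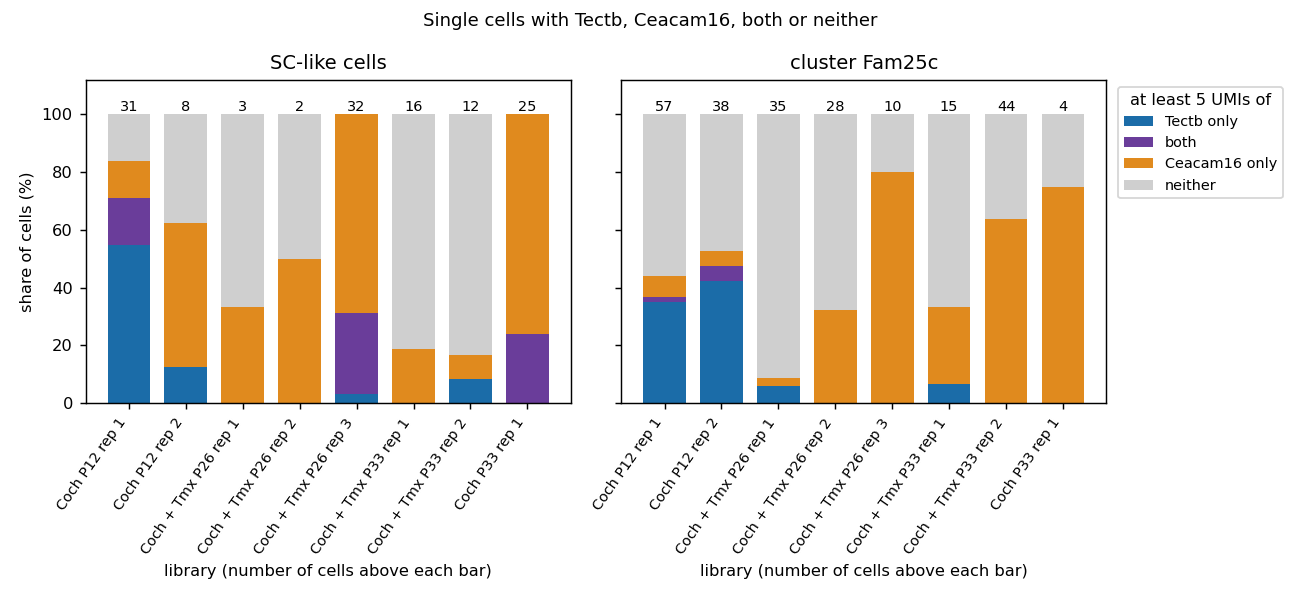
Stacked bars of the share of SC-like cells (129) and of cells of cluster Fam25c (231) with at least 5 UMIs of Tectb alone, of both genes, of Ceacam16 alone or of neither, by library, with the number of cells above each bar. At P12, cells with Tectb alone are 17 of 31 SC-like cells of rep 1 but 1 of 8 of rep 2. In cluster Fam25c they are 20 of 57 and 16 of 38 cells.

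Of the otogelins, Otog levels in SC-like cells overlapped between Coch P12 and Coch + Tmx P33, and Otogl gave lower levels later. Otog in SC-like cells stood at 667 and 515 CPM in Coch P12, 334 CPM in the library labelled as rep 3 of Coch + Tmx P26, 727 and 300 CPM in Coch + Tmx P33 and 349 CPM (293 to 412) in Coch P33. Of the later groups only Coch + Tmx P33 overlapped with P12, and the difference from P12 to Coch + Tmx P33 was -0.20 on the log2 scale (adjusted p = 0.866). Against all later libraries the Otog difference was -0.48 (adjusted p = 0.528). In cluster Fam25c the P12 libraries had 284 and 312 CPM and the later libraries with at least 5 cells had 298 to 579 CPM. Cluster Agr3 gave 136 and 110 CPM at P12, and 172 to 390 CPM in every later library, all above P12. The class-wide age difference of Otog was -0.43 (adjusted p = 0.71), and in cluster Agr3 alone, an alternative chosen after the data were seen, it was 1.11 (adjusted p = 0.0963).

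Otogl in SC-like cells stood at 173 and 42.2 CPM (69 and 5 UMIs) in Coch P12, at 29.2 CPM in the library labelled as rep 3 of Coch + Tmx P26, at 13.5 and 7.33 CPM (3 and 1 UMIs) in Coch + Tmx P33 and at 32.6 CPM in Coch P33. All 4 later libraries lay below both P12 libraries. From P12 to Coch + Tmx P33 Otogl fell by 3.40 (SE 0.70, adjusted p = 0.00163), and against all later libraries by 2.31 (SE 0.47, adjusted p = 0.00171). DESeq2 did not call the former (adjusted p = 0.207) and gave no adjusted p for the latter. Otogl reached the filter level of 32.25 CPM in both P12 sums and in Coch P33, but in neither Coch + Tmx P33 sum. Its call between P12 and Coch + Tmx P33 thus supports nothing about the direction. In cluster Fam25c, Otogl ranged from 9.18 to 63.5 CPM at P12 and from 4.68 to 50.6 CPM in the later libraries with at least 5 cells, which overlapped. Neither otogelin passed the age test in the nonsensory epithelial-like class.

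Whether the age change differed between SC-like cells and the nonsensory epithelium was tested as an interaction. None of the 6 genes tested passed by edgeR or DESeq2, and 2 had an unadjusted p under 0.05, where 0.281% of the 7477 genes tested were called. For Tectb the change in SC-like cells was 3.68 less negative on the log2 scale (SE 1.34, adjusted p = 0.377), and for Otogl it was 1.57 more negative (SE 0.53, adjusted p = 0.325). Without the library labelled as rep 3 of Coch + Tmx P26 the values were 2.75 and -1.90 (adjusted p = 0.632 and 0.306). Without Coch + Tmx P33 rep 1 the Tectb value was 6.98 and passed (adjusted p = 0.0034).

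Otoancorin RNA was spread over several cell groups, and SC-like cells held 4 of its 457 UMIs. Its pooled level was 48.1 CPM in Reissner membrane-like cells, 29.0 CPM in cluster Fam25c and 22.4 CPM in cluster Ucma, and Reissner membrane-like cells held 30.4% of its UMIs. Unnamed clusters held 143 UMIs, and stromal-like cells, nearly all of them from P12, held 36, at 11.7 and 26.7 CPM in the P12 libraries. In Reissner membrane-like cells the libraries gave 23.4 and 55.9 CPM at P12 and 38.3 to 86.5 CPM in Coch + Tmx P26. Coch + Tmx P33 had 52.4 and 45.2 CPM there and Coch P33 had 32.4 CPM, so each later group overlapped with P12. In cluster Fam25c the P12 libraries had 33.8 and 48.2 CPM and Coch + Tmx P26 had 42.1, 59.0 and 17.0 CPM, whereas Coch + Tmx P33 had 9.27 and 0 CPM. The age difference in the nonsensory epithelial-like class was -0.76 (SE 0.52, adjusted p = 0.559).

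Otolin-1 RNA was found almost only in cluster Fam25c, at 207 CPM pooled over libraries. Its level there was 191 and 94.1 CPM in Coch P12, 366, 556 and 111 CPM in Coch + Tmx P26, and 153 and 222 CPM in Coch + Tmx P33. The 4 cells of Coch P33 held 4 UMIs. The Coch + Tmx P26 libraries alone spanned 5-fold, and the groups overlapped. In the class as a whole the age difference was -0.83 (SE 0.70, adjusted p = 0.65), and in cluster Fam25c alone it was 0.82 (adjusted p = 0.521). A UMI was found in 58.4% of the cells of this cluster, and in 25.1% after thinning, against 0.537% and 0% of macrophage-like cells. SC-like cells held no Otol1 UMI in 129 cells, and a count of 0 allows a share of cells with a UMI of up to 2.33% (3 counts of 129).

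**Figure D3:**
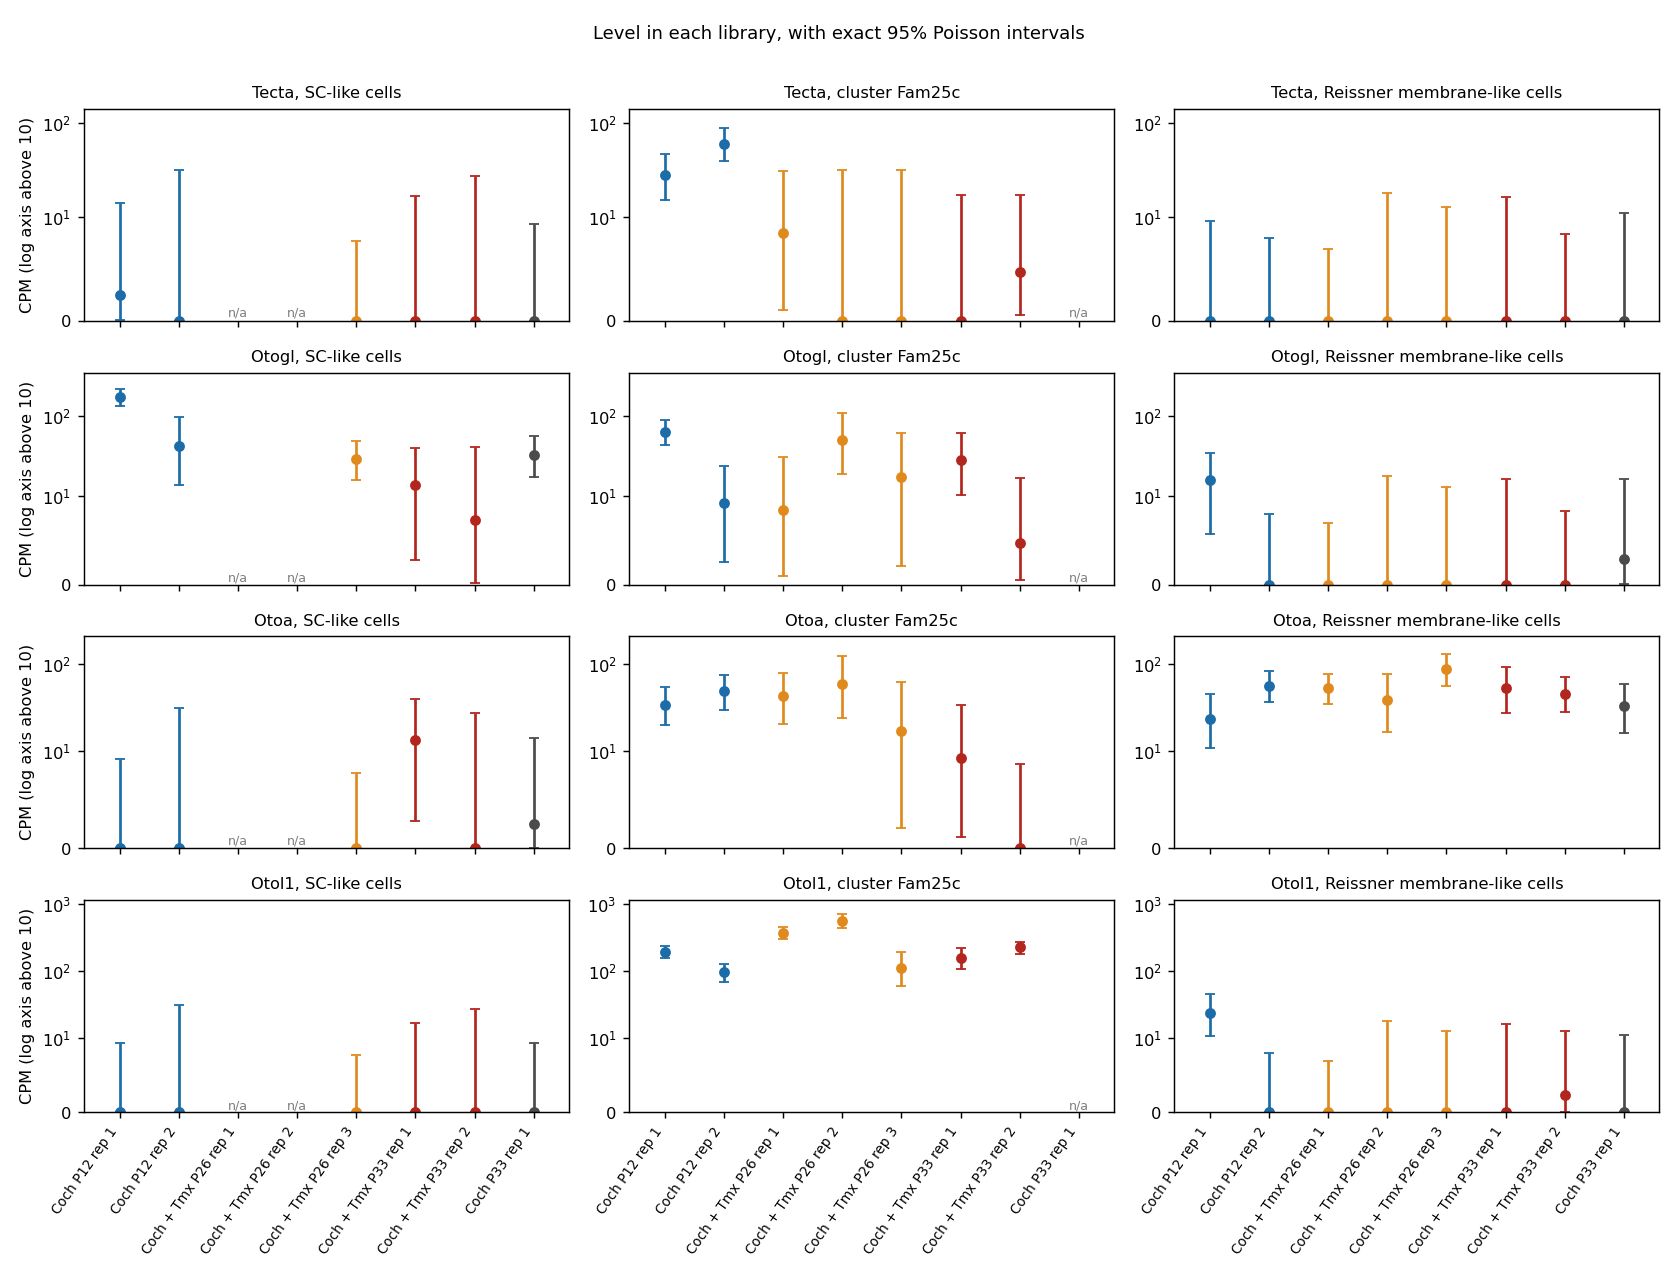
Levels of Tecta, Otogl, Otoa and Otol1 (CPM) in SC-like cells, cluster Fam25c and Reissner membrane-like cells, 1 point per library with its exact Poisson 95% interval; n/a marks fewer than 5 cells. Otol1 reaches 94.1 to 556 CPM in cluster Fam25c and is at 0 in SC-like cells, and the Tecta points above 20 CPM are the P12 libraries of cluster Fam25c.

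Within libraries, SC-like cells were set against the nonsensory epithelial-like class of the same libraries. The 7 genes had entered neither the clustering nor the naming of classes. Of the 4 genes tested, 1 passed and was higher in SC-like cells, where 8.23% of the 5446 genes tested were called higher. Otog was 1.74 higher on the log2 scale (SE 0.26, adjusted p = 0.000845). Tectb was 2.94 higher (SE 0.95, adjusted p = 0.0578; DESeq2 0.00975), Otogl was 1.06 higher (adjusted p = 0.0572) and Ceacam16 was 1.79 higher (SE 1.15, adjusted p = 0.348). Without the library labelled as rep 3 of Coch + Tmx P26 these differences were 1.67 for Otog (adjusted p = 0.00473), 2.29 for Tectb, 1.07 for Otogl and 1.05 for Ceacam16 (adjusted p = 0.126 to 0.679 for the last 3). The contrast depended on the cluster, as alternatives chosen after the data were seen showed. Against cluster Fam25c alone Otog differed by 0.46 (adjusted p = 0.307), so that these neighbours in the order of Otog levels did not differ beyond their spread. Against cluster Ucma alone it was 4.03 higher and against cluster Agr3 alone 1.14 higher (adjusted p = 0.0124).

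Otog RNA was lower in cHC-like cells than in SC-like cells of the same libraries. In Coch + Tmx P33, Otog stood at 83.2 and 31.2 CPM in cHC-like cells against 727 and 300 CPM in SC-like cells. Tectb stood at 1.63 and 9.17 CPM (1 and 5 UMIs) in cHC-like cells against 36.1 and 198 CPM, and Ceacam16 at 14.7 CPM in both libraries against 185 and 73.3 CPM. Otog differed by -3.16 on the log2 scale (SE 0.29, adjusted p = 5.06e-26; DESeq2 1.84e-06), where 17.1% of the 5780 genes tested were called lower. With 2 pairs of sums this p-value leans on the spread shared across genes. The fitted differences were -4.35 for Tectb and -3.12 for Ceacam16, but both genes reached the filter level of 26.1 CPM in the SC-like sums only, so their calls support nothing about the direction. In Coch + Tmx P26, where SC-like cells were too few for the pairs, cHC-like cells of rep 1 and rep 2 had 67.7 and 11.4 CPM of Tectb, 133 and 284 CPM of Ceacam16 and 73.6 and 171 CPM of Otog. The values of rep 2 come from 6 cells, with 1 UMI of Tectb and with all 15 UMIs of Otog in 1 cell. Otogl had 0 UMIs in all cHC-like cells.

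At P12, the HC-like cells of rep 1 held 2 UMIs of Tectb, 1 of Ceacam16 and 2 of Otog among 152957, and those of rep 2 held 0 of each among 80201. The SC-like cells of the same libraries held 1544 and 86 UMIs of Tectb. These 3 genes were called lower in HC-like cells, where 26.4% of the 2575 genes tested were, but each reached the filter level in the SC-like sums only, so the calls support nothing about the direction. The fitted folds rest on 0 to 2 UMIs and depend on the prior count.

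**Figure D4:**
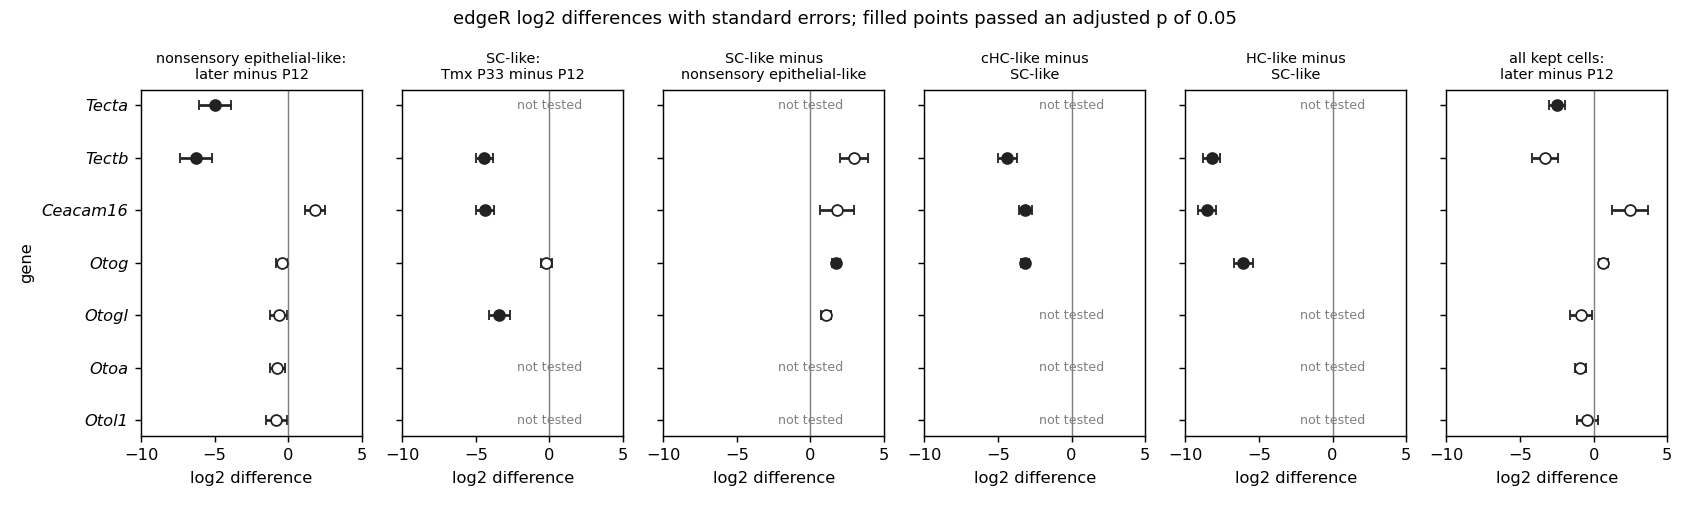
Log2 differences of the 7 genes from edgeR with their SE in 6 comparisons; filled points have an adjusted p under 0.05, and genes removed by the filter on low counts are marked as not tested. Tectb lies below 0 in the 3 age comparisons plotted, from -6.26 in the nonsensory epithelial-like class to -3.29 over all cells, while Otog is close to 0 in SC-like cells.

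Over all cells, induced and uninduced libraries were compared by a two-sided exact permutation test on log2(CPM + 1), with 5 libraries against 3. The smallest p that this design allows is 0.0357, and none of the 7 genes reached it. Tectb was lower in the induced libraries by 2.88 (exact permutation p = 0.0714), with 0.954 to 43.6 CPM against 19.0 to 191 CPM, and these ranges overlapped through the library labelled as rep 3 of Coch + Tmx P26 alone. Without that library the groups did not overlap and the difference was -3.47 (p = 0.0571 by the same permutation test, the smallest that 4 against 3 allow). Of the 3 uninduced libraries 2 were of P12, so age and induction are mixed here as well. Otol1 was higher by 1.38 (permutation p = 0.179), Otog by 0.85 (permutation p = 0.107) and Ceacam16 by 0.50 (permutation p = 0.75). The 7 p-values are not adjusted for each other.

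The related gel genes are a list of 11 with the collagens of the tectorial membrane (Col2a1, Col9a1, Col9a2, Col9a3, Col11a1 and Col11a2), Emilin2, Umodl1 and others. Emilin2 is counted here, although the paper uses it as a marker of tympanic border cells under the basilar membrane. Many of the listed genes were lower in the later libraries than at P12. In the nonsensory epithelial-like class 6 of the 8 tested passed and all 6 were lower later, where 0.982% of all genes were called lower (7 of 8 by DESeq2), with a median over the 8 of -2.53 against -0.04 over all genes and -0.76 over the 7 matrix genes. Col2a1, the chain of type II collagen, fell by 6.42 (adjusted p = 7.66e-05) and Col9a1, a chain of type IX collagen, by 4.40 (adjusted p = 0.000689). In SC-like cells 6 of 8 were lower in Coch + Tmx P33 than in Coch P12, where 2.93% of all genes were (3 of 8 by DESeq2), among them Col9a1 at -4.51 and Umodl1 at -4.23. Over all cells 7 of 10 were lower, where 3.44% of all genes were, and DESeq2 called 7 lower and 1 higher. Whether the gel genes called for age reached the filter level in the P12 sums only was not checked. In cHC-like against SC-like cells edgeR called 3 of 5 higher and 2 lower, where 20.9% and 17.1% of all genes were called higher and lower, and DESeq2 called 0 of the 5. The higher ones included Umodl1 at 1.36 and Strc at 6.81. Strc encodes stereocilin, a protein that couples outer hair bundles to the gel. In Coch + Tmx P33 it stood at 40.8 and 29.4 CPM in cHC-like cells and had 0 UMIs in SC-like cells of both libraries. Strc thus reached the filter level in the cHC-like sums only, so its call supports nothing about the direction.

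Of the 7 otoconial genes on the second list, 4 were tested in the nonsensory epithelium and 0 passed by edgeR, with 2 at an unadjusted p under 0.05 and 1 called by DESeq2. In SC-like cells 1 of 3 passed between Coch P12 and Coch + Tmx P33. This was Sparc, a calcium-binding matrix protein that is made in many tissues, and it fell by 1.64. Over all cells 2 of 5 were lower, where 3.44% of all genes were: Sparc, and Oc90 at -7.30 (adjusted p = 0.00295). Oc90 encodes otoconin-90, the main otoconial protein. It stood at 52.0 and 57.3 CPM at P12 and at 0 to 1.46 CPM later. Oc90 thus reached the filter level of 1.77 CPM in the P12 sums only, so its call supports nothing about the direction. Reissner membrane-like cells held 598 of 646 and 595 of 635 of its UMIs at P12.

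Genes with the most similar pattern to each of the 7 were named by Pearson's r of log levels over the 30 clusters with at least 20 cells. These clusters share libraries and depth, so r is a description only. For Tectb they were Hsd17b6 (r = 0.876), Tmprss2 (r = 0.872) and Rbp7 (r = 0.863). For Ceacam16 they were Tmprss6 (r = 0.805), Tmprss2 (r = 0.802) and Kcnj16 (r = 0.797), and for Otogl they were Kcnj16 (r = 0.875), Tmprss2 (r = 0.868) and Gdf6 (r = 0.862). Otog was most like Pof1b (r = 0.903), Tmem79 (r = 0.890) and Wnt7a (r = 0.890). Otol1 was most like Sprr1a (r = 0.768), Cpa6 (r = 0.721) and Ano1 (r = 0.714), and Otoa most like Asap3 (r = 0.737), Col4a5 (r = 0.722) and 1500015O10Rik (r = 0.692). Tecta, with few UMIs, was most like Sh2d6 (r = 0.839), Slc17a8 (r = 0.828) and Otof (r = 0.795), of which the last 2 are HC genes.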

How the data were processed

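Dissociated cochleae were profiled with 10x Chromium 3′ v2 chemistry. The deposited matrices hold raw UMI counts per gene and cell, made by the authors with Cell Ranger (version not given in the sources used here) on mm10. Cells with at least 500 genes and under 25% mitochondrial UMIs were kept, and 57 doublets (0.946%) were removed. This left 5966 of 8061 barcodes. Libraries shared at most 3 barcodes. Clusters (scanpy 1.11.5, Leiden resolution 1.0, without the 7 genes and 18 related genes) were named from marker lists. Members and lists were chosen with earlier results of these data known. UMI counts were summed per library and class (at least 5 cells) and tested with the quasi-likelihood test of edgeR 4.0.16 (TMM, filterByExpr, Benjamini-Hochberg over all genes tested, called at an adjusted p under 0.05). The SE is the log2 difference divided by the root of F. Class comparisons had the library as a block. The later mean weights the 3 later groups equally. Coch P33, 1 library, entered fits as a group, and its own values have exact Poisson intervals. DESeq2 1.42.0, other filters, clusters and left-out libraries were alternatives. Each fit except those of HC-like against SC-like cells and of the interaction was tested on simulated data. These data had the same spread between libraries for all genes, so they do not test how the fits handle the real spread. Deviations of same-numbered libraries from their group means had correlations of -0.0692 to 0.170, and replicate numbers were treated as names. Over all cells the rep 1 values were all positive (0.139 to 0.170). Where a group holds only a pair of libraries their deviations mirror each other, so rep 1 and rep 2 values are not independent. Genes with the 3 highest r were named. CPM from 3′ ends is not divided by length, so levels are compared within a gene.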

Additional observations from a re-analysis of the deposited data

Results flagged for a closer look

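Among 14 sets of the 5 induced libraries (7 genes over all cells and in the nonsensory epithelial-like class), 2 held a library far from the others by Dixon's test. Chance flags about 1 in 20 such sets. Tectb over all cells was at 43.6 CPM in the library labelled as rep 3 of Coch + Tmx P26, against 0.954 to 10.8 CPM in the other 4, a gap of 0.770 of the range against a critical value of 0.71. This library also had the uninduced Atoh1 level and 32 SC-like cells. Tecta in the nonsensory epithelial-like class was at 6.33 CPM in Coch + Tmx P26 rep 1, against 0 to 1.77 CPM in the others, a gap of 0.719 of the range. That value rests on 2 UMIs.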

How the results depend on the processing

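Of the values of single matrix genes under the alternatives, 350 kept their direction and side of the threshold, 27 gained the call, 29 lost it and 24 turned direction. The number of matrix genes called for age in the nonsensory epithelial-like class, 2, became 0 with DESeq2 or in cluster Agr3 alone, and 1 with mitochondrial UMIs under 10%, at Leiden resolution 2.0, in cluster Fam25c alone (with or without droplets with HC RNA), in cluster Ucma alone or with those droplets left out of the class. Leaving out 1 library gave 0 to 2, and 0 without Coch + Tmx P26 rep 2 or either P12 library. For SC-like cells the count, 3, became 0 with DESeq2 and 1 with mitochondrial UMIs under 10% (2 to 3 leaving out 1 library). For SC-like against nonsensory cells the count, 1, became 7 without the filter on low counts, 2 with DESeq2, with at least 10 cells or against cluster Ucma, and 3 at Leiden resolution 0.5 or with cluster Agr3 alone or added (1 to 3 leaving out 1 library). The 7 called without the filter did not share 1 direction, since Otol1 had 0 UMIs in SC-like cells. For HC-like cells the count, 3, became 1 at Leiden resolution 2.0. Over all cells the count, 1, became 0 with DESeq2 or mitochondrial UMIs under 10%, 2 without the filter (0 to 2 leaving out 1 library), and the interaction count, 0, became 2 without the filter (0 to 1 leaving out 1 library). With the replicate block the count over all cells became 3 (Tecta -2.64, Tectb -4.02, Ceacam16 2.24) and that in the nonsensory class 3, with Ceacam16 at 1.89 (adjusted p = 0.00991). The cause of these shifts was not tested.

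None of the values that turned direction was called in the main comparison. Leaving out 1 library, their ranges began or ended at -1.32 (Otogl) and -1.24 (Otol1) in the nonsensory class, -1.02 (Otog) in SC-like cells, -1.54 (Otogl) and -0.81 (Otol1) over all cells and 0.46 (Otog) for the interaction. For age in the nonsensory class these were Otogl at 0.77 without P12 rep 1, Otog at 0.33 and Otol1 at 0.33 without Coch P33, and Otog at 0.06 with Leiden resolution 0.5, 0.05 with cluster Agr3 added, 0.28 in cluster Ucma and 1.11 in cluster Agr3. In cluster Fam25c Otog was 0.67 and Otol1 0.82, and without droplets with HC RNA 0.58 and 0.85. In SC-like cells Otog was 0.32 without Coch + Tmx P33 rep 2 and 0.24 with mitochondrial UMIs under 10%. Over all cells Otogl was 0.50 and Otol1 0.15 without P12 rep 1, and Otol1 was 0.85 without Coch P33 and 0.10 with mitochondrial UMIs under 10%. The interaction of Otog was -0.12, -0.21 and -0.33 without Coch + Tmx P26 rep 3, P12 rep 2 and Coch P33, -0.53 at Leiden resolution 0.5, -0.21 with at least 10 cells, -1.07 in cluster Fam25c and -0.61 in cluster Ucma.

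Counts of all genes called ranged over the alternatives from 38 to 553 for age in the nonsensory class (120 in the main comparison), 84 to 507 in SC-like cells (370), 469 to 1849 for SC-like against nonsensory cells (891), 389 to 2197 for cHC-like (2195), 536 to 1707 for HC-like (1343), 71 to 1546 over all cells (984) and 1 to 149 for the interaction (21). No library could be left out of the cHC-like and HC-like comparisons, which would leave 1 pair. For HC-like cells, mitochondrial UMIs under 10% and at least 10 cells also left 1 pair. Settings with single clusters or droplets left out were chosen after seeing the data. Depth limits Tecta (74 UMIs) and Otogl (267 UMIs) most.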

Other observations

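Barcodes that were left out held further Ceacam16 RNA, with 89 UMIs (19.2 CPM) in the library labelled as rep 3 of Coch + Tmx P26 and 36 UMIs (23.5 CPM) in Coch P33. The other 6 libraries had 0 to 7 UMIs there, among them Coch P12 rep 2 with 4 UMIs (4.12 CPM) and Coch + Tmx P33 with 3 and 4. In cluster Fam25c, 18 droplets held at least 5 UMIs of 5 HC genes: 5 of 57 in Coch P12 rep 1, 2 of 10 in the library labelled as rep 3 of Coch + Tmx P26, and 6 of 15 and 5 of 44 in Coch + Tmx P33. Without them Ceacam16 in this cluster was 51.1 CPM (6 UMIs) in place of 380 CPM in Coch + Tmx P33 rep 1 and 3111 CPM in rep 2. Atoh1 stood at 598 and 152 CPM in this cluster in Coch + Tmx P33. A single cell of cluster Fam25c held a UMI of all 7 genes.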
